A study of Homo sapiens with 3 samples.

Results

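Knockout ZMYND11 regions that followed each other at short distance were described here. They come from a list of regions bound by ZMYND11 in DU145 prostate cancer cells that lack ETS1. The 15676 regions of that list were sorted along each chromosome, neighbours were joined where the next start lay less than 1000 bp after the previous end, and every region in a joined locus of 2 or more was kept. This gave 510 loci with 1044 regions, 6.66% of the list, and left 14632 single regions (93.3%). The members were thus chosen by their positions in the same library, so their spacing is a description and carries no test.

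The study used chromatin immunoprecipitation followed by sequencing (ChIP-seq), in which DNA bound to a chosen protein is recovered with an antibody and mapped to the genome. DU145 is an established line from a brain metastasis of a prostate adenocarcinoma. There were 3 libraries: ZMYND11 (BS69) in parental DU145 cells with ETS1 intact, ZMYND11 in DU145 with ETS1 knocked out, and ETS2 in DU145 with ETS1 knocked out. Puromycin was in the growth medium where cells had been selected. How the knockout was made, and whether it is 1 clone or a pool, is not given in the sources used here. Each group is 1 library, the lists hold positions only, and read depth is unknown, so no value below has a replicate error.

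ZMYND11 is a chromatin reader with PHD, bromo, PWWP and MYND domains. It is known to recognise histone H3.3 trimethylated at lysine 36, a mark laid down along the bodies of transcribed genes, and to act there as a co-repressor that restrains elongation by RNA polymerase II. ETS1 and ETS2 are closely related DNA-binding factors that are phosphorylated by the kinase ERK downstream of Ras. A reader of a gene-body mark can be spread over broad stretches of chromatin, whereas ETS factors bind short DNA motifs. No hg19 sequence or annotation was used here, so genes, exons and motifs under the regions were not analysed here. The ETS1 locus itself was likewise not examined.

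Nearly all of the joined loci were pairs. Of the 510, 488 held 2 regions (976 regions), 20 held 3 (60 regions) and 2 held 4 (8 regions). The pairs spanned 1477 to 1993 bp with a median of 1820 bp, the loci of 3 spanned 2703 to 3455 bp, and the loci of 4 spanned 4057 and 4174 bp. The regions themselves covered 0.514 Mb of the 7.72 Mb in the whole list. Joined regions and single regions had nearly the same widths, with a median of 495 bp against 496 bp for single regions and a common upper limit of 501 bp.

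No neighbours in the knockout list were closer than 501 bp, and no midpoints were closer than 990.5 bp. Inside the joined loci the 534 gaps ran from 501 to 999 bp, with a median of 828 bp and quartiles of 714 and 914 bp. The number of neighbouring pairs went from 48 at gaps of 500 to 599 bp, through 71, 122 and 127 in the next steps of 100 bp, to 166 at 900 to 999 bp. Just outside the limit there were 167 pairs at 1000 to 1099 bp and 175 at 1100 to 1199 bp. The limit of 1000 bp therefore did not fall at a break in the spacing. With a lower bound near 501 bp, a region in a locus of several was always parted from the next by at least its own width, and no locus was a continuous block of listed sequence.

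**Figure D1:**
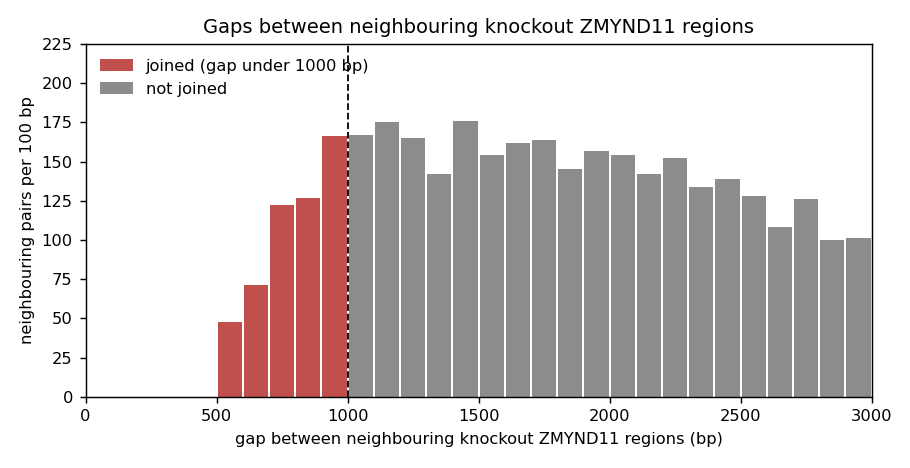
Number of neighbouring pairs of knockout ZMYND11 regions (vertical axis) by the gap between them in steps of 100 bp (horizontal axis), with joined pairs in red and the limit of 1000 bp as a dashed line. Counts are 0 below 500 bp, climb from 48 to 166 inside the limit and go on at 167 and 175 just outside it.

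The 2 loci of 4 regions were on chromosomes 12 and 7. The first, chr12:123726110-123730167 (hg19, coordinates as deposited), held regions at list places 13989, 13907, 5978 and 7984 from left to right, parted by 745, 627 and 712 bp. List place is the position of a region in the deposited file, which is not in genomic order and whose meaning is not stated. The second, chr7:45757184-45761358, held places 14844, 11843, 10137 and 6693, parted by 723, 556 and 917 bp. In the chromosome 7 locus the place became earlier with every step to the right, and in the chromosome 12 locus the 2 regions on the right stood before the 2 on the left. The chromosome 7 locus was isolated, since the nearest further ZMYND11 region lay 605546 bp away. The chromosome 12 locus had one at 3129 bp.

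The 20 loci of 3 regions were spread over 14 chromosomes. Their regions stood at a median list place of 11003, from 2962 to 15527. The earliest-listed of them was chr17:38293019-38296233, at places 2962, 6676 and 3392. In chr2:61418321-61421579 the 3 regions stood close together in the list, at places 6057, 5859 and 6251. In chr14:103800248-103803398 they stood far apart, at 4977, 15383 and 15315. These 3 loci were chosen after their values were seen, for the range they show.

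**Figure D2:**
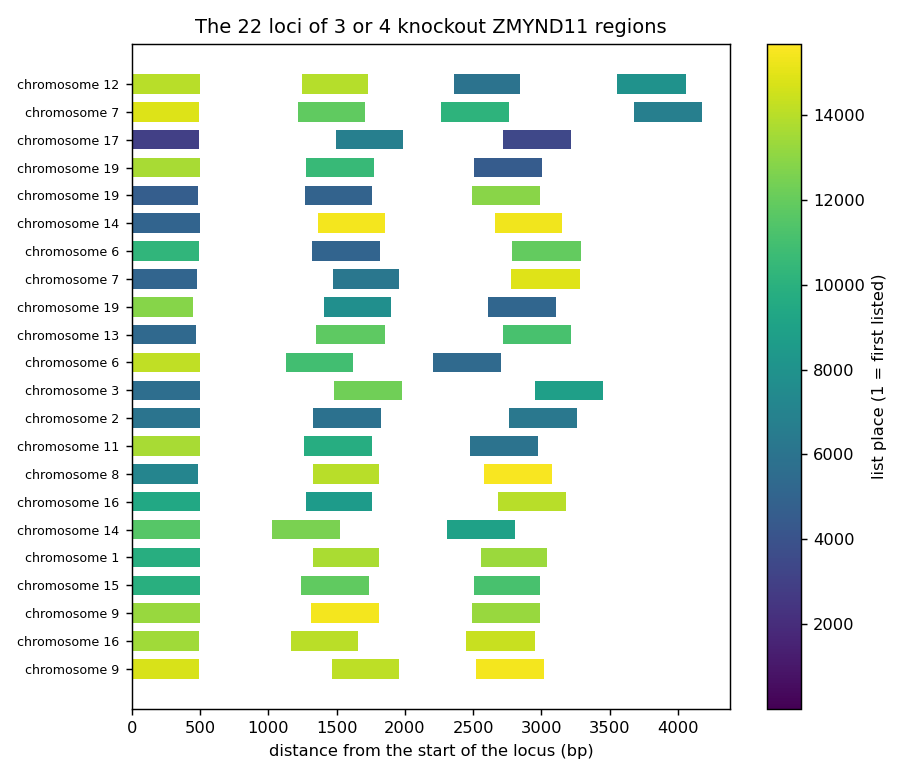
Each row is 1 of the 22 loci with 3 or 4 knockout ZMYND11 regions, labelled by chromosome. Bars are the regions, drawn to scale by distance from the start of the locus in bp, and colour gives the list place. Every bar is parted from the next by an unlisted gap of 527 to 999 bp. List places run from 2962 to 15527, with places far apart in some loci and close together in others.

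Joined regions stood later in the list than single regions. Their median place was 9875 of 15676 (quartiles 6712 and 12736), against 7642.5 (3717 and 11656) for single regions. Of the joined regions 342 (32.8%) were in the first 50% of the list, against 7496 of the single regions (51.2%). In the first 10% of the list, 4 of 1568 regions were joined (0.255%, 95% Wilson interval 0.0992 to 0.654%). In the second 10% 36 were joined (2.30%), and in the third 59 (3.77%). From the fourth to the ninth 10% between 121 and 156 were joined, with the highest share in the ninth (9.95%, interval 8.56 to 11.5%), and in the last 10% 115 were (7.34%, 6.15 to 8.74%). Wilson intervals cover counting error only. List place comes from the same library as the spacing, so these values are a description.

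Regions at the beginning of the list were nonetheless not isolated. In the first 10% of the list 66.8% of regions had their nearest neighbour at 1000 to 9999 bp, the highest share of the 10 steps, against 49.6% in the last 10%. That class leaves out joined regions, of which the first step had fewest. With them, 67.0% of the first step had a neighbour under 10000 bp away, against 67.7% in the sixth step and 57.0% in the last. Among neighbouring pairs, those with an early region were rarest at the shortest gaps. At gaps under 1000 bp, 4 of 534 neighbouring pairs (0.749%) included a region from the first 10%. The share was 3.59% at 1000 to 1099 bp, 8.44% at 1500 to 1999 bp and 32.9% at 5000 to 9999 bp. The median place of the earlier-listed partner changed in the same order, from 9549.5 for pairs 500 to 599 bp apart, through 6216 at 900 to 999 bp and 6270 at 1000 to 1099 bp, to 2896 at 5000 to 9999 bp. It was 4895 where the gap was 20000 bp or more, so this median was earliest at gaps of 5000 to 9999 bp. By number, pairs with a region from the first 10% were most frequent at gaps of 20000 bp or more. There were 1162 of them there, against 661 at 5000 to 9999 bp.

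**Figure D3:**
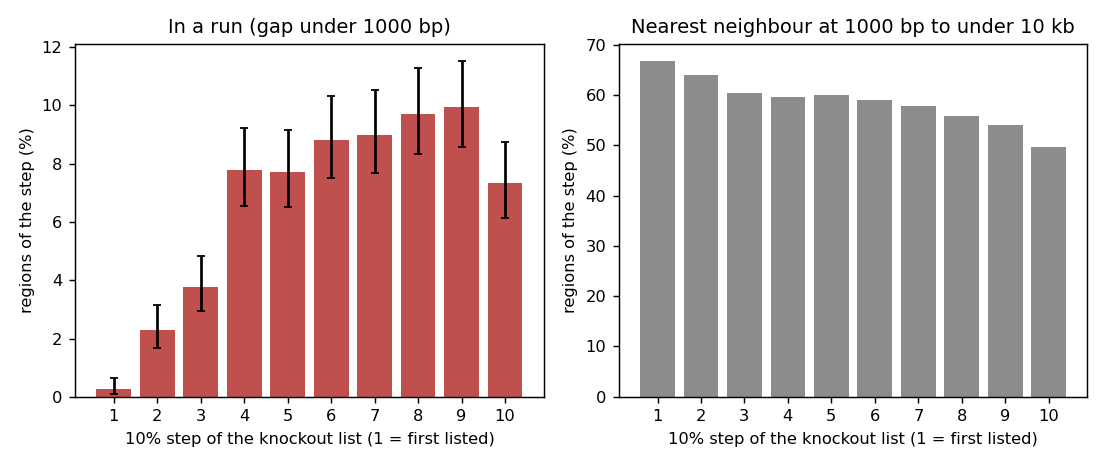
Left, the share of regions in joined loci (%) in each 10% step of the knockout list, with 95% Wilson intervals. Right, the share whose nearest neighbour lay 1000 to 9999 bp away. The joined share goes from 0.255% in the first step to 9.95% in the ninth, while the share with a neighbour slightly farther off is highest in the first step, at 66.8%. The right panel leaves out joined regions. With them, the share with a neighbour under 10000 bp is 67.0% in the first step and 67.7% in the sixth.

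The 2 regions of a pair often stood far apart in the list. Their places differed by a median of 3357 (quartiles 1618 and 5980), and across the 488 pairs Spearman's rho between the left and the right region was 0.02, given as a description of points that share 1 library. Both regions were in the last 50% of the list in 224 pairs (45.9%), both in the first 50% in 56 (11.5%), and 208 (42.6%) were split. The earlier-listed region lay at the lower coordinate in 248 of the 488 pairs (50.8%, Wilson interval 46.4 to 55.2%).

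The 10 loci whose best region stood earliest, all of them pairs, were chosen by that place, so a later place of the other region is partly fixed by the choice. At chr17:18965415-18967316 the regions were at places 2117 and 35, with a gap of 929 bp, and this was the only 1 of the 510 loci with a region among the first 100 places. At chr12:49657583-49659433 they were at 13635 and 461, and at chr19:13054763-13056626 at 7817 and 1023. At chr11:58345983-58347941 they were at 1446 and 11471, and at chr16:30967186-30969150 at 8772 and 1947. The later-listed region was thus at place 7817 or beyond in the last 4 of these loci, and at place 2117 in the chromosome 17 locus.

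The next 5 loci had their best region between places 2179 and 2280. They were chr11:47183943-47185876 with places 2179 and 6788, chr22:19436405-19438396 with 2190 and 10668, and chr7:6455767-6457670 with 2217 and 9724. The last were chr17:57696980-57698862 with 2269 and 11793 and chr1:45279278-45280970 with 2280 and 8406. In each of these 5 the earlier-listed region was the one at the lower coordinate. The gaps in the 10 loci were 718 to 994 bp.

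**Figure D4:**
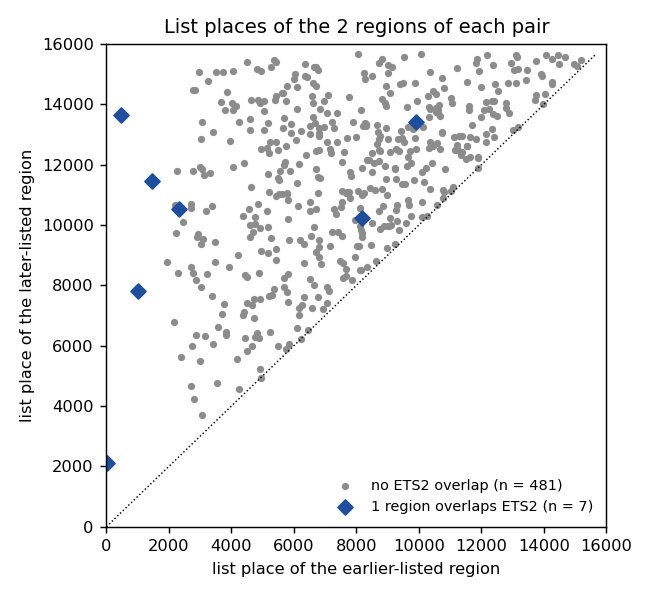
Each point is 1 of the 488 pairs, with the list place of its earlier-listed region on the horizontal and of its later-listed region on the vertical axis. The dotted line marks equal places, and blue diamonds are the 7 pairs in which 1 region overlaps an ETS2 region. Points fill the area above the line without gathering along it, and 5 of the 7 diamonds lie at the left, where 1 region is early and the other later.

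ETS2 was rarely found on joined ZMYND11 regions, and they stood where ETS2 was rare on single regions too. An overlap of at least 1 bp with an ETS2 region of the same knockout cells was listed for 7 of the 1044 joined regions (0.670%, Wilson interval 0.325 to 1.38%) and for 575 of the 14632 single regions (3.93%, interval 3.63 to 4.26%). Over all knockout ZMYND11 regions the share was 3.71%. The difference was -3.26 percentage points (Newcombe 95% interval -3.73 to -2.49). Regions of 1 locus are not independent. Counted once per locus, 7 of 510 joined loci had an overlap (1.37%, interval 0.666 to 2.81%), a difference of -2.56 points (-3.34 to -1.09). ETS2 and ZMYND11 were precipitated from cells of the same knockout, in 1 library each, and the intervals describe these lists and not conditions.

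The difference went with list place. Most ETS2 overlap of the single regions was in the first 10% of the list, with 460 of 1564 (29.4%, interval 27.2 to 31.7%), followed by 70 of 1532 (4.57%) in the second 10% and 17 of 1508 (1.13%) in the third. Where the single regions were weighted to the 10% steps in which the joined regions stood, their ETS2 share was 0.580%, so that the joined share of 0.670% was 0.0907 percentage points higher instead of lower. The weighted share lay within the joined regions' interval. All 4 joined regions of the first 10% overlapped an ETS2 region (interval 51.0 to 100%), as did 1 of 36 in the second 10% and 2 of the 1004 in the rest of the list. Lower ETS2 overlap was therefore not detectable for joined regions at like list places. Neither did it set in at the joining limit: single regions with their nearest neighbour at 1000 to 1499 bp overlapped ETS2 in 0.594% of cases (interval 0.313 to 1.13%), those at 1500 to 1999 bp in 2.18%, those at 2000 to 4999 bp in 3.87% and those at 5000 to 9999 bp in 6.55% (5.60 to 7.65%). The share was 5.92% at 10000 to 19999 bp and 3.59% at 20000 bp or more. These classes also differed in list place, with medians of 8333 at 1000 to 1499 bp, 6433 at 5000 to 9999 bp and 8432 at 20000 bp or more.

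**Figure D5:**
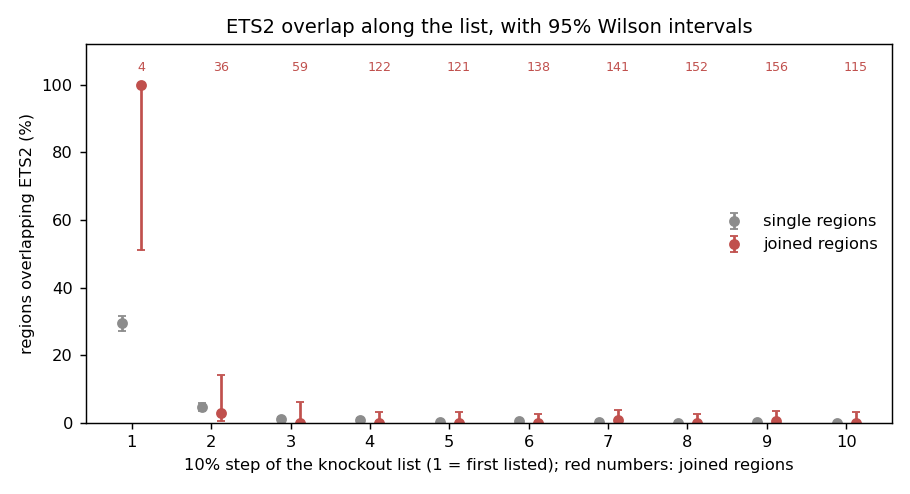
Share of knockout ZMYND11 regions that overlap an ETS2 region (%, vertical axis) in each 10% step of the knockout list, for single (grey) and joined (red) regions with 95% Wilson intervals, and the number of joined regions above. The grey points go from 29.4% in the first step to 4.57% in the second and stay low after that, and the 4 joined regions of the first step all overlap ETS2.

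In each of the 7 loci with ETS2 exactly 1 of the 2 regions overlapped it, and no locus had ETS2 on 2 of its regions. The overlapped region was the earlier-listed of its locus in 5 of the 7. Among single regions too, ETS2 overlap was most frequent at early places (29.4% in the first 10%), so this count is not particular to the loci. At chr17:18965415-18967316 the ZMYND11 region at place 35 met the ETS2 region at place 7 of the 1020 in the ETS2 list, with midpoints 10.0 bp apart. At chr12:49657583-49659433 the region at place 461 met the ETS2 region at place 690, with midpoints 1.0 bp apart. In both of these the ETS2 region covered nearly the same bases as its ZMYND11 partner. At chr19:13054763-13056626 the midpoints were 265 bp apart and at chr11:58345983-58347941 303 bp.

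The remaining 3 loci with ETS2, named after their values were seen, were chr10:126431864-126433792, chr5:133772853-133774602 and chr12:120971424-120973212. Their midpoints were 370, 205 and 320.5 bp apart. At the chromosome 5 and the second chromosome 12 locus ETS2 lay on the later-listed region, at places 10225 and 13416. The 7 ETS2 regions were at places 7 to 976 of the ETS2 list with a median of 690, against a median of 409 for the 575 ETS2 regions on single ZMYND11 regions.

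At 3 further loci an ETS2 region lay within 2000 bp of the ZMYND11 regions without touching them. At chr1:2456575-2458377 it fell into the gap of a pair, 91 bp after the left and 255 bp before the right region, at place 581 of the ETS2 list. At chr5:168004520-168006179 it began 56 bp beyond the right region. At the locus of 3 regions on chromosome 16, chr16:30929395-30932345, it lay 1429 bp away and was at place 34 of the ETS2 list, while the ZMYND11 regions stood late, at places 13440, 14039 and 14337. The choice of these loci was made with their positions known.

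Over the whole list fewer joined than single regions had ETS2 within 10000 bp. At like list places, however, the joined share was the higher one at each distance examined. The distances are nested, so these are not separate results, and the weighted shares of single regions have no interval. An ETS2 midpoint lay within 1000 bp of 1.05% of joined and 4.92% of single regions, within 10000 bp of 7.57% (interval 6.11 to 9.33%) and 11.3% (10.8 to 11.8%), and within 100000 bp of 33.0% (30.3 to 36.0%) and 32.1% (31.4 to 32.9%). The difference at 100000 bp was 0.925 percentage points (-1.96 to 3.93). Weighted to the list steps of the joined regions, the single regions had 0.773% within 1000 bp, 6.79% within 10000 bp and 27.7% within 100000 bp, below the joined share each time. The weighted values at 1000 and 10000 bp lay within the joined intervals. Those at 2000 bp (1.03%, against 1.82% of joined regions, interval 1.17 to 2.82%) and at 100000 bp lay below them. The intervals do not allow for the pairing of regions in loci. Joined loci also lay nearer to further ZMYND11 regions: the median gap to the next region outside the locus was 3823 bp, against 5557 bp for the nearest neighbour of single regions. Of the joined loci 56.9% had another region within 5000 bp, and of the single regions 47.6%. The loci were chosen by close spacing in this same list, so these spacing values are a description. They were not weighted by list place. The part of this local density in the ETS2 values was not tested.

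No joined region was among those that ZMYND11 also held in parental cells. An overlap with a parental ZMYND11 region was listed for 0 of 1044 joined regions, which allows a share of up to 0.287%, and for 56 of 14632 single regions (0.383%, interval 0.295 to 0.497%). Over all knockout regions the share was 0.357%. The difference was -0.383 percentage points (Newcombe interval -0.497 to -0.00574). Per locus, 0 of 510 allows up to 0.588%, and the interval of the difference, -0.497 to 0.370 points, then included 0. Weighted to the same list steps, the single share was 0.276%, below what a count of 0 allows. A lower share of overlap was thus not detectable with this number of regions. The limits cover counting error only. The nearest parental region to any joined locus was 1788 bp beyond the pair chr7:99748796-99750465. Within 10000 bp of a parental midpoint were 1.15% of joined (interval 0.659 to 2.0%) and 2.45% of single regions (2.22 to 2.72%), and within 100000 bp 12.1% and 13.2%. Weighted to the list steps, the single regions had 0.530% within 2000 bp, 2.09% within 10000 bp and 12.1% within 100000 bp. Of the joined regions 0 lay within 2000 bp (interval up to 0.367%). The weighted values at 2000 and 10000 bp were thus above the joined intervals, which do not allow for the pairing of regions in loci. Counted once per locus, 0 of 510 has an interval up to 0.748%, which includes the weighted 0.530% at 2000 bp. At 10000 bp a count by locus was not made.

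Joined loci were spread over all chromosomes with more than 8 listed regions. Chromosome 1 held 47 of them, chromosome 17 held 45 and chromosome 19 held 44, and these are also the chromosomes with most ZMYND11 regions. As a share of its own regions chromosome 4 had most in runs (36 of 405, 8.89%, interval 6.49 to 12.1%) and, leaving aside chromosome Y with 0 of 8, chromosome 21 fewest (6 of 218, 2.75%, interval 1.27 to 5.87%). The interval of chromosome 21 lay below the share of the whole list, 6.66%, and was the only one of 24 to exclude it. That comparison was not adjusted for the number of chromosomes.

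Within chromosomes the loci were mostly scattered. They began in 385 different megabases, of which 286 held 1 locus, 80 held 2, 13 held 3 and 5 held 4. Chromosome 14 from 105 to 106 Mb held 5 joined loci among its 72 ZMYND11 regions, the most of any megabase. The megabases with 4 were chromosome 11 from 0 to 1 Mb, chromosome 16 from 30 to 31 Mb, chromosome 7 from 99 to 100 Mb, and chromosome 17 from 7 to 8 Mb and from 38 to 39 Mb, with 36 to 60 ZMYND11 regions each. The chromosome 16 segment holds both the pair with a region at place 1947 and the locus of 3 that lies 1429 bp from an ETS2 region.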

How the data were processed

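ChIP-seq region lists of 3 libraries were used, 1 per group, grouped by sample title. Bowtie2 version 2.0.6 and build hg19 are named in the submitters' processing notes. How peaks were called, against which control and at what depth is not given in the sources used here. The files deposited by the authors hold a chromosome, a start and an end per region in bp, with no score, and other columns were not used.

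Neighbours with a gap under 1000 bp were joined. Regions of different lists were called shared at an overlap of at least 1 bp. Shares have 95% Wilson intervals, differences Newcombe intervals, and a count of 0 allows 3 counts. No p-value was computed, since each group is 1 library. Alternatives were other joining gaps and overlap rules, parts of the list, loci as the unit, isolated single regions and weighting by list place. Named loci are those of 4 or more regions and the 10 with the earliest region, leaving out chromosome 8. Loci that overlap both other lists, or ETS2 with 2 regions, were also to be named, but there were 0 of either. Members, lists and rules were chosen with earlier results of these data known. The planned work on genes, gene groups and motifs was not run without an hg19 genome. Joining and overlap were tested on simulated data. Python 3.11.15, numpy 2.4.6, pandas 2.3.3, scipy 1.17.1 and matplotlib 3.10.9 were used.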

Additional observations from a re-analysis of the deposited data

How the results depend on the processing

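Each group is 1 library, so no replicate could be left out. No paired analysis was possible because each group has 1 sample. The difference in ETS2 share between joined and single regions was -3.26 percentage points. It was -3.87 points for midpoints within 1000 bp and -6.04 points in the first 50% of the list. It turned to 0.0907 points when single regions were weighted to the 10% steps of the list in which joined regions stood, and to 0.121 points with 100 steps, which was chosen after seeing the data. The other 4 alternatives gave -2.56 to -3.58 points. The difference in parental share was -0.383 points and between -0.168 and -0.492 points under its 8 alternatives, of which list weighting with 100 steps was again added later. Of the 6 alternatives with an interval, 4 had one that included 0 (reciprocal overlap of 50%, the gap of 2000 bp, the first 50% of the list and counting by locus). The joined regions stood 2232.5 places later in the median, 1219.5 places later with a joining gap of 2000 bp and 1763.5 later against single regions with no other within 10000 bp. A joining gap of 500 bp left 0 loci and 0 regions, so that no share could be formed, and one of 2000 bp gave 1751 loci with 3892 regions. How many loci there are thus follows the chosen gap. Read depth is unknown, and gene and motif settings were not run.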

Other observations

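By the same rule 45 of 1020 ETS2 regions (4.41%, Wilson interval 3.31 to 5.85%) formed 22 loci, and 6 of 536 parental ZMYND11 regions (1.12%, interval 0.514 to 2.42%) formed 3. Over the whole knockout ZMYND11 list the share was 6.66%, but that order did not hold for its first regions. Cut to the length of the ETS2 list, its first 1020 regions formed 0 runs among themselves (which allows a share of up to 0.294%). Cut to the length of the parental list, its first 536 also formed 0 (up to 0.560%). At equal length, a setting added after seeing the data, the share in runs was thus lower for the first-listed knockout regions than for the ETS2 list. Against the parental list, the limit of 0.560% and the interval from 0.514% overlapped. The cut keeps the earliest places, where few knockout regions were joined in the whole list. It therefore cannot tell list length from list place. The smallest gap was 617 bp in the ETS2 list and 788 bp in the parental list.

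Of the 22 ETS2 runs, 14 had a knockout ZMYND11 region on 1 of their regions and 0 on more than 1, and 0 of these 14 ZMYND11 regions were themselves joined. Over all 582 ZMYND11 regions with ETS2 the joined share was 1.20%, so a count of 0 of 14 is near the background. In 2 others a ZMYND11 region lay in the gap between the ETS2 regions. Of the joined ETS2 regions 14 of 45 (31.1%, interval 19.5 to 45.7%) overlapped ZMYND11, against 568 of 975 single ETS2 regions (58.3%, interval 55.1 to 61.3%). Regions of 1 run are not independent. Counted once per run, 14 of 22 had an overlap, which is not a lower share than that of single ETS2 regions. A run has more than 1 region that can overlap. The largest ETS2 run, chr7:130555709-130558695, held 3 regions at places 668, 468 and 297 of the ETS2 list and overlapped no ZMYND11 region. At chr11:66128347-66130172 the ETS2 regions stood at places 497 and 579, and the ZMYND11 region under the second was at place 124. The 3 parental runs were at chr14:103985580-103987381, chr19:798399-800175 and chr2:43450559-43452518. Only the first overlapped a knockout ZMYND11 region, a single one at place 259. The choice of runs named here was made with their positions known.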
